A study of Mus musculus with 12 samples.

Results

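The genes Adgre1, Timd4, Icam2, Selp, Garnl3, Fn1, Prg4, Vsig4, Cd9 and Marco are used as markers of the large macrophages (Mϕ) that live in the peritoneal cavity. Their rows were taken by symbol from the 2 tables of normalised read counts, 1 table for F4/80lo and 1 for F4/80hi Mϕ. They were 10 of the 47643 gene identifiers of each table, and all 10 passed the minimum level for testing in every comparison. Timd4, Icam2, Selp, Vsig4, Cd9, Marco and Adgre1 encode proteins of the cell membrane. Fn1 and Prg4 encode secreted proteins, and Garnl3 encodes a protein with a GTPase-activating domain, so the name surface markers does not hold for these 3. Coordinates below are those of the whole protein-coding gene in GENCODE on GRCm38, the build of the files.

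The libraries came from female C57BL/6 mice, 8 to 12 weeks old, which had all received 5 mg/kg zymosan A into the peritoneum. From day 1 they were given a daily dose of CIII (25 mg/kg), an inhibitor of the prostaglandin E2 synthase mPGES-1, or of its vehicle VEH (1% Tween-80, 0.5% carboxymethyl cellulose and 0.9% NaCl). Mϕ were sorted from the lavage at day 6 as F4/80hi (CD45+, CD11b+, high for F4/80 and MerTK) or as F4/80lo (CD45+, CD11b+, low for F4/80 and MerTK, high for MHCII). In the study's gating scheme, cells with both CD11c and MHCII were set aside as dendritic cells, CD45+ cells without CD11b as lymphoid cells, and Ly6G+ cells among those low for F4/80 and MerTK as neutrophils. Each of the groups F4/80lo VEH, F4/80lo CIII, F4/80hi VEH and F4/80hi CIII held 3 libraries, 12 in all, numbered 1 to 3 by their titles. Mice without zymosan are not analysed here. The sources used here do not say whether mice were pooled or whether libraries of 1 number share mice, so p-values measure only the spread between these libraries.

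Large peritoneal Mϕ carry high F4/80, depend on the transcription factor GATA6 and maintain themselves in the cavity with little input from the blood. They take up apoptotic cells and microbes through surface receptors and can cover wounds of the peritoneal lining. During inflammation their number falls as they adhere or clot, and monocyte-derived Mϕ with low F4/80 and high MHCII enter. In resolution, some of the incoming cells acquire genes of the resident type.

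Upstream sequences were read for the markers that a RefSeq promoter table of GRCm38.p6 holds, which were 6 of the 10 (Timd4, Selp, Garnl3, Vsig4, Cd9 and Marco, 7 windows, since Garnl3 has 2 start sites). They were searched on either strand for GATAA, the letters that GATA factors bind, and for AGGAAG, a form of the site of the myeloid factor PU.1. AGGAAG lay in windows of 3 genes, Marco, Selp and Cd9, and in 29.48% of all 32851 windows. GATAA lay in 0 of the 7 windows and in 22.58% of all windows, which says only that these letters are not in the 250 bases before each start. No match overlapped another. The 250 bases before the start of Marco (chr1:120505025-120505274, minus strand), which had the largest difference between the subpopulations, and of Selp (chr1:164115014-164115263, plus strand) are shown 5′ to 3′ with AGGAAG or its reverse complement CTTCCT in capitals.
Marco: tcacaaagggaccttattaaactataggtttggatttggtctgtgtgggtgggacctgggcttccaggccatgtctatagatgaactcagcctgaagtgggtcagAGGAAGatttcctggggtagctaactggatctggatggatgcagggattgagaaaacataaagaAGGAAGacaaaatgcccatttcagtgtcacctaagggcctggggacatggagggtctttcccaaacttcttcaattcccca
Selp: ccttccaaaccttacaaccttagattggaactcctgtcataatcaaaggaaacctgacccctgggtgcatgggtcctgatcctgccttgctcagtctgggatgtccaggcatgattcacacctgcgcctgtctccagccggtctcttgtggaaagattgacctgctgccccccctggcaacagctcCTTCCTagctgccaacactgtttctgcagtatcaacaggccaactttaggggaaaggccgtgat
In Marco the matches lay at bases -145 to -140 and -81 to -76 from the start. In Selp the match lay on the other strand at -64 to -59, and in Cd9 at -203 to -198. A match is a description of the letters and not of a bound site.

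Depth ran from 426624 to 3389448 reads on genes, and 3 reads, the most that a count of 0 allows, were worth between 0.941 and 6.67 jointly normalised counts. These limits cover counting error only. The libraries numbered 3 stood apart in all 4 groups. The gene Gm42418 took 14.3% of the reads in F4/80lo VEH 3, 7.82% in F4/80hi VEH 3, 2.65% in F4/80lo CIII 3 and 2.86% in F4/80hi CIII 3, and at most 0.579% elsewhere. Of the 10 markers, 10 were lowest in number 3 among the F4/80hi VEH libraries, 9 among F4/80hi CIII, 9 among F4/80lo VEH and 5 among F4/80lo CIII. Of all genes tested, these libraries were lowest for 38.0%, 37.8%, 38.6% and 32.5%. Results are therefore given with and without number 3. The markers were among the values that set number 3 apart. Estimates and calls without it are thus not independent of the levels tested, and they are no separate support. Because fewer cells of a type and less RNA per cell give the same picture in sorted bulk samples, they cannot be told apart here.

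**Figure D1:**
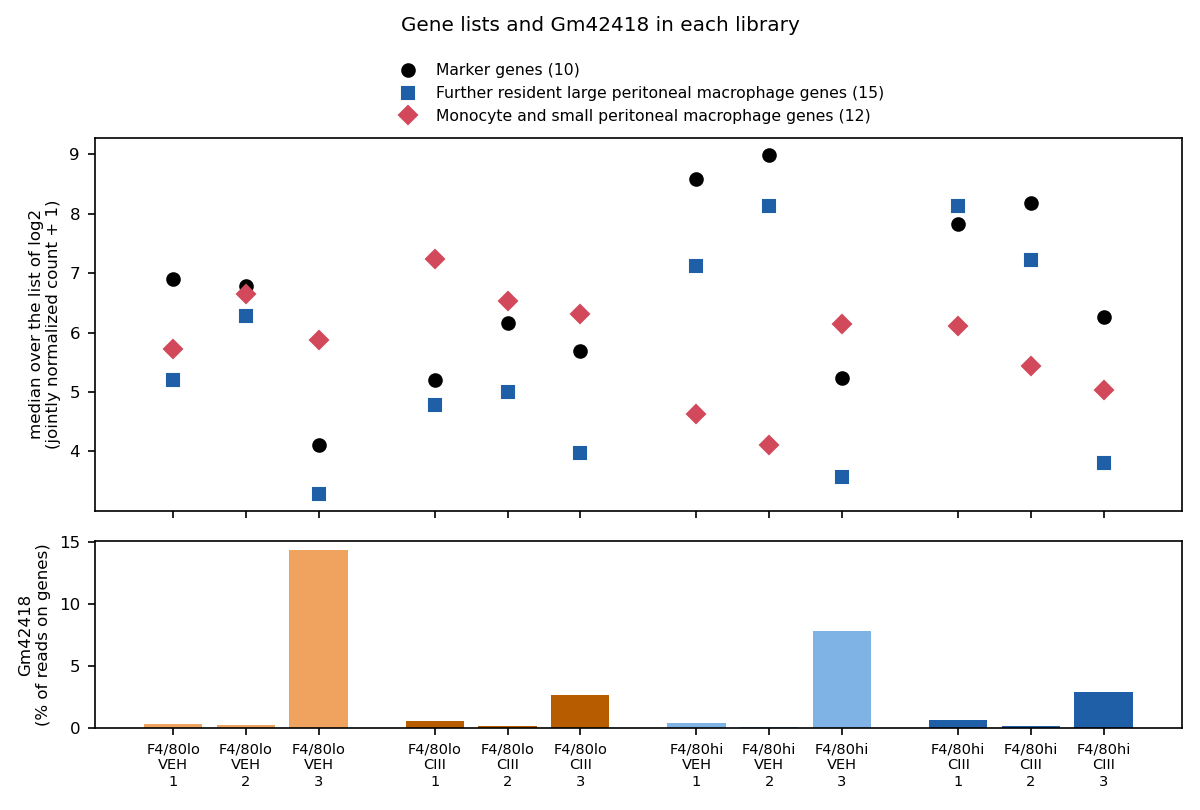
Upper panel: for each of the 12 libraries, the median over each gene list of the log2 of the jointly normalised count plus 1 (10 marker genes, 15 further resident genes, 12 monocyte and small peritoneal Mϕ genes). Lower panel: Gm42418 in percent of the reads on genes. The markers had medians of 8.59 and 8.99 in F4/80hi VEH 1 and 2 and of 5.24 in number 3, where Gm42418 took 7.82% of reads.

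The sort was checked on the genes of its antibodies and on other cell types. Mertk lay between 170.0 and 427 jointly normalised counts over the 12 libraries, and its log2 difference between F4/80hi and F4/80lo was 0.19 (SE 0.22, adjusted p = 0.834, limma), and the subpopulations overlapped. H2-Aa, a gene of the MHCII gate, had a log2 difference of -2.08 (SE 0.54, limma, adjusted p = 0.209), which missed the threshold. It was called lower in F4/80hi with the replicate block (F4/80hi against the F4/80lo library of the same treatment and number) (limma, adjusted p = 0.00518) and without the libraries numbered 3 (-3.03, SE 0.37, limma, adjusted p = 0.000125). The list for the gate held 9 genes that were tested, Cd74 (the MHCII invariant chain) among them, and 6 had a negative difference. Of these, limma called 6 lower with the block and 5 without number 3, against 2.45% and 1.53% of all genes. The other 3 had a positive difference, and limma called 2 of them, Adgre1 and Itgam, higher with the block and without number 3, against 2.53% and 1.75%. Itgam encodes CD11b, an antigen of both gates, and had a log2 difference of 1.27 (SE 0.37, limma, adjusted p = 0.282) that was called with the block (limma, adjusted p = 0.00228). Gata6, chosen after its values were seen, was at 34.9, 49.2 and 2.16 in F4/80hi VEH, at 21.8, 36.3 and 5.62 in F4/80hi CIII and at most at 7.79 in F4/80lo. In F4/80hi Mϕ, number 3 held the lowest Gata6 of each treatment.

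The markers were higher in F4/80hi than in F4/80lo Mϕ in their mean log2 level for all 10 genes, with a median difference of 1.76 on the log2 scale against 0.006 over all 10660 genes tested. No marker reached an adjusted p under 0.05 with limma over all 12 libraries, where 0.00938% of genes were called higher. An unadjusted p under 0.05 was reached by 5 markers (Adgre1, Icam2, Garnl3, Vsig4 and Marco), against 4.37% of genes, edgeR called 0, and DESeq2 called 4 (Adgre1, Icam2, Garnl3 and Marco), against 0.553%. With the treatment and replicate number as a block, so that each F4/80hi library was set against the F4/80lo library of the same number, limma called 8, all but Timd4 and Fn1, against 2.53% of genes. Without the libraries numbered 3 it called 8, against 1.75%, and 8 of these were shared with the block. Without F4/80hi VEH 3 alone, limma's adjusted p was 0.0109 for Adgre1, 0.00783 for Icam2 and 0.00301 for Marco, and without F4/80hi CIII 3 alone it was 0.0333 for Adgre1. Adgre1 encodes F4/80, the antigen of the sort, so its difference is a check of the sort and no finding.

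**Figure D2:**
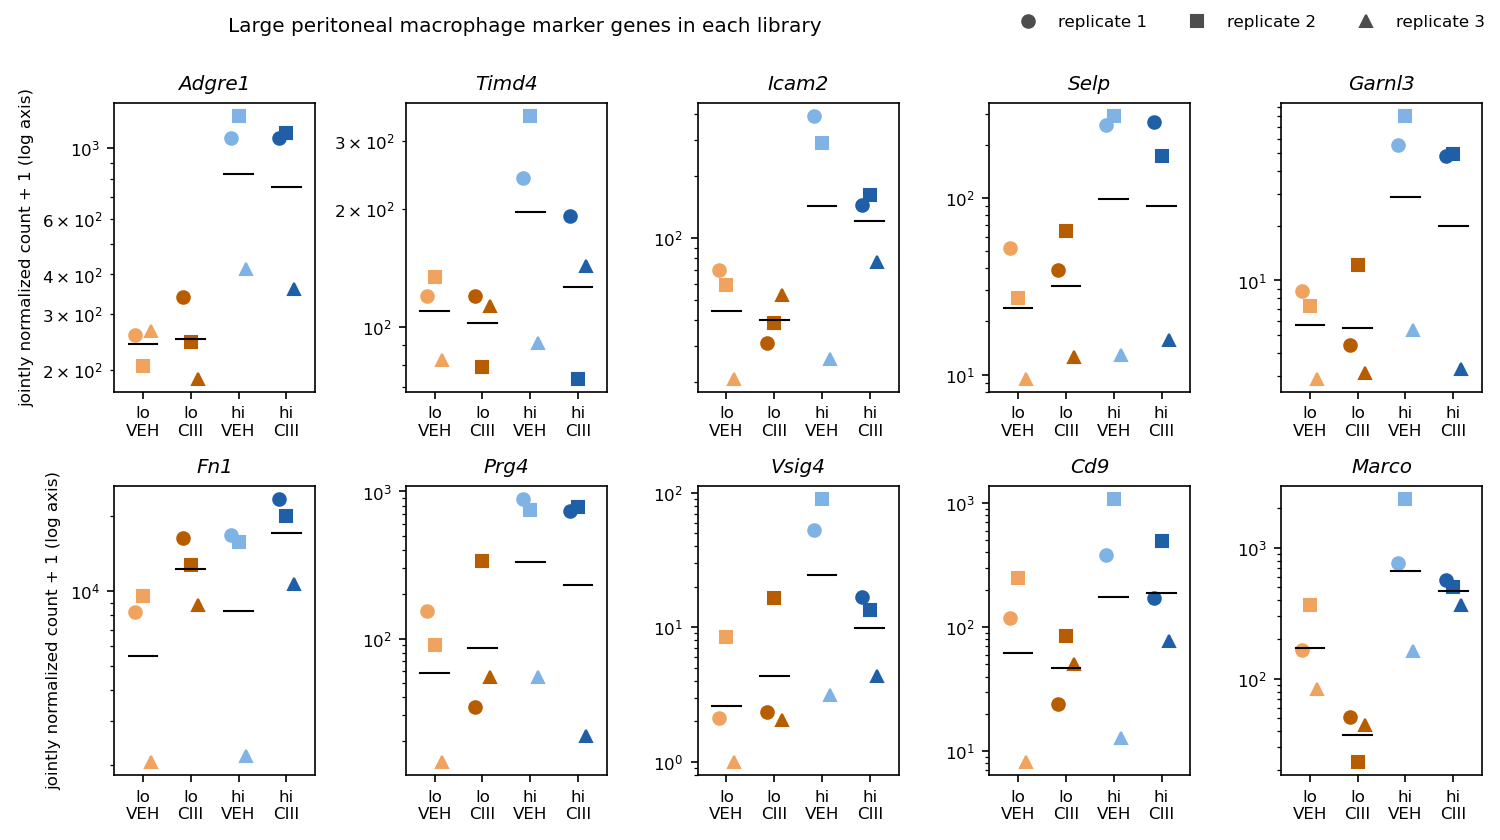
Jointly normalised count plus 1 (log axis) of the 10 marker genes in F4/80lo (lo, orange) and F4/80hi (hi, blue) Mϕ with VEH or CIII. Each symbol is 1 library, its shape is the replicate number and the line is the mean on the log scale (n = 3). Adgre1 reached 1076, 1263 and 417 with VEH in F4/80hi and at most 264 in F4/80lo, and triangles (number 3) sit lowest for all 10 genes in F4/80hi VEH.

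Adgre1 (chr17:57358691-57483527), the gene of the adhesion receptor F4/80, checks the labels of the sort. In F4/80lo Mϕ it was at 257, 205 and 264 jointly normalised counts with VEH and at 337, 245 and 187 with CIII, in the order of numbers 1, 2 and 3. F4/80hi Mϕ had it at 1076, 1263 and 417 with VEH and at 1077, 1112 and 360.0 with CIII. Every F4/80hi library lay above every F4/80lo library, which held for 1 of the 10 markers and for 0.281% of all genes, and the gap was narrowest in number 3. On the log2 scale, F4/80hi exceeded F4/80lo by 1.69 (SE 0.34, limma, adjusted p = 0.102) and 2.13 without number 3 (SE 0.22, limma, adjusted p = 2.73e-05).

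The receptors for uptake of particles came next. Marco (chr1:120474538-120505024) encodes a scavenger receptor that binds bacteria and particles. In F4/80lo Mϕ it was at 166, 363 and 83.1 with VEH and at 50.3, 22.2 and 43.2 with CIII. The F4/80hi libraries held 765, 2357 and 163 with VEH and 567, 499 and 365 with CIII. F4/80hi was above F4/80lo in 6 of 6 pairs of the same treatment and number, and the subpopulations did not overlap with CIII but did with VEH, where F4/80hi number 3 lay under 2 of the F4/80lo libraries. Between the subpopulations the log2 difference was 2.80 (SE 0.53, limma, adjusted p = 0.0809, exact permutation p = 0.00866, two-sided). With the block its SE was 0.22 (limma, adjusted p = 3.26e-06), and without number 3 it was 3.20 (SE 0.35, limma, adjusted p = 5.47e-05).

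Vsig4 (chrX:96247203-96293438) encodes a complement receptor of tissue Mϕ and had few reads. F4/80lo libraries held 1, 6 and 0 reads with VEH and 2, 7 and 1 with CIII. Its level in F4/80hi Mϕ was 51.6, 88.9 and 2.16 jointly normalised counts with VEH and 15.8, 12.5 and 3.37 with CIII, and in F4/80lo Mϕ it was no more than 15.6. It was higher in F4/80hi in 5 of 6 pairs, with F4/80lo CIII 2 above its partner. The fitted log2 difference of 2.22 (SE 0.87, limma, adjusted p = 0.442; 0.0224 with the block) depends on the added pseudocount at these depths. Without number 3 it was 2.65 (SE 0.66, limma, adjusted p = 0.0362).

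Timd4 (chr11:46810800-46844332) encodes TIM-4, a receptor for phosphatidylserine on apoptotic cells. In F4/80lo Mϕ it was at 119, 133 and 81.2 with VEH and at 119, 77.8 and 112 with CIII. In F4/80hi Mϕ it was at 240.0, 346 and 89.8 with VEH and at 191, 72.6 and 142 with CIII. The subpopulations overlapped, and the lowest value of F4/80hi was that of CIII 2. The log2 difference of 0.57 (SE 0.34, 95% interval -0.15 to 1.30, limma, adjusted p = 0.640) also missed the threshold with the block (adjusted p = 0.0913) and without number 3 (0.74, SE 0.30, adjusted p = 0.209).

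Of the adhesion genes, Icam2 (chr11:106377656-106388075) encodes a ligand of leukocyte integrins that is used to gate large peritoneal Mϕ. It was at 69.0, 58.3 and 19.8 with VEH and at 29.9, 37.8 and 51.7 with CIII in F4/80lo Mϕ. F4/80hi Mϕ had it at 391, 287 and 24.9 with VEH and at 144, 161 and 75.3 with CIII. With CIII the subpopulations did not overlap, and with VEH F4/80hi number 3 lay under 2 F4/80lo libraries. The log2 difference was 1.65 (SE 0.57, limma, adjusted p = 0.371) and 2.26 without number 3 (SE 0.25, limma, adjusted p = 5.47e-05). The block gave an adjusted p of 0.00234 with limma.

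Selp (chr1:164115264-164150026) encodes P-selectin, which is best known from platelets and endothelium. It was at 51.2, 26.1 and 8.47 with VEH and at 38.1, 64.5 and 11.6 with CIII in F4/80lo Mϕ. The F4/80hi libraries held 259.5, 291 and 11.9 with VEH and 267, 171 and 14.6 with CIII. Numbers 1 and 2 of F4/80hi lay above all F4/80lo libraries, and number 3 lay among the lowest. On the log2 scale, F4/80hi exceeded F4/80lo by 1.78 (SE 0.85, limma, adjusted p = 0.543), 0.00600 as the adjusted p with the block, and 2.48 without number 3 (SE 0.29, limma, adjusted p = 0.000106).

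Platelet markers were examined beside Selp, since platelets carry it. Of the list of 5, Gp9 was at 0 in all 12 libraries, Gp1bb had 1 read, Ppbp 4 reads and Itga2b 8 reads in all. Pf4, which Mϕ also express, ran from 7.38 to 2541, and the sum of the list ranged from 7.38 to 427 among F4/80lo libraries, with 22.5 to 2542 as the range among those of F4/80hi. Pf4 differed in the same direction as Selp. It was lowest in number 3 of all 4 groups, and its log2 difference between F4/80hi and F4/80lo was 2.0 (SE 1.23, limma, adjusted p = 0.652). It was called higher with the replicate block (limma, adjusted p = 3.25e-06) and without the libraries numbered 3 (2.08, SE 0.29, limma, adjusted p = 0.000615). The part of platelets in the difference of Selp was not tested.

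Fn1 (chr1:71585520-71653200) encodes fibronectin, a secreted matrix protein. It was at 8262, 9594 and 2060.5 with VEH and at 16305, 12769 and 8771 with CIII in F4/80lo Mϕ. Its level in F4/80hi Mϕ was 16837, 15794 and 2172 with VEH and 23455, 20128 and 10714 with CIII. F4/80hi was above F4/80lo in 6 of 6 pairs, by a log2 difference between 0.08 and 1.03, and the subpopulations overlapped. The mean difference of 0.55 (SE 0.59, 95% interval -0.71 to 1.81, limma, adjusted p = 0.818) missed the threshold with the block (adjusted p = 0.235) and without number 3 (0.73, SE 0.35, adjusted p = 0.296). The fibroblast list, whose cells also make fibronectin, had 14 reads over 6 genes in all libraries.

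Prg4 (chr1:150449412-150466165) encodes the lubricating proteoglycan lubricin. In F4/80lo Mϕ it was at 152, 89.3 and 13.5 with VEH and at 33.3, 336 and 53.8 with CIII. In F4/80hi Mϕ it was at 887, 747 and 54.1 with VEH and at 732, 789 and 20.8 with CIII. Numbers 1 and 2 of F4/80hi were above every F4/80lo library, while CIII 3 was lower in F4/80hi than in F4/80lo. Between the subpopulations the log2 difference was 1.97 (SE 0.99, limma, adjusted p = 0.565; 0.0153 with the block) and 2.81 without number 3 (SE 0.47, limma, adjusted p = 0.00277). Mesothelial cells also make lubricin, and their 7 markers had 2 reads in all.

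Cd9 (chr6:125460266-125494791) encodes a tetraspanin of the plasma membrane. It was at 118, 247 and 7.21 with VEH and at 23.1, 84.5 and 49.5 with CIII in F4/80lo Mϕ. F4/80hi Mϕ had it at 377, 1075 and 11.9 with VEH and at 169.8, 489 and 76.9 with CIII. F4/80hi was above its F4/80lo partner in 6 of 6 pairs, although the levels of the pairs differed widely and the subpopulations overlapped. The log2 difference was 1.73, with an SE of 1.00 without the block (limma, adjusted p = 0.630) and of 0.26 with it (limma, adjusted p = 0.000959). Without number 3 it was 2.28 (SE 0.43, limma, adjusted p = 0.00651).

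Garnl3 (chr2:32986224-33131654) was the marker with the fewest reads after Vsig4. In F4/80lo Mϕ it was at 7.79, 6.20 and 1.88 with VEH and at 3.40, 11.1 and 2.11 with CIII. The F4/80hi libraries held 54.4, 79.3 and 4.33 with VEH and 47.3, 48.8 and 2.25 with CIII. Numbers 1 and 2 of F4/80hi lay above all F4/80lo libraries and number 3 did not. On the log2 scale, F4/80hi exceeded F4/80lo by 2.10 (SE 0.80, limma, adjusted p = 0.424; 0.0187 with the block) and 2.91 without number 3 (SE 0.45, limma, adjusted p = 0.00134).

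**Figure D3:**
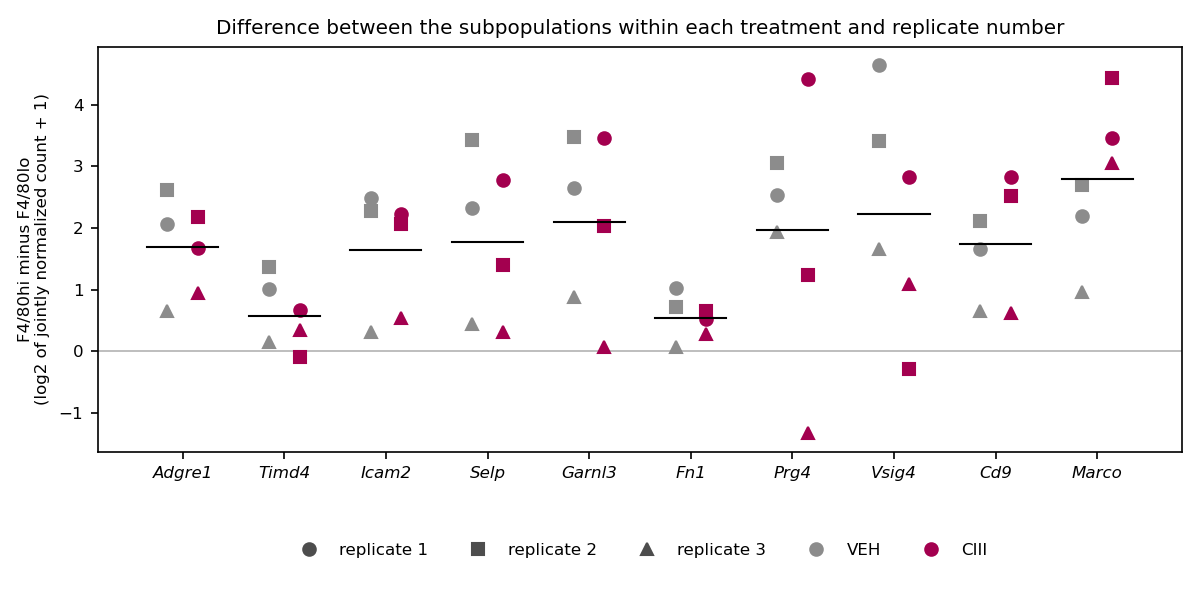
Log2 difference (F4/80hi minus F4/80lo, jointly normalised count plus 1) of each marker between the libraries of the same treatment and replicate number, with 6 pairs a gene. Shape gives the number, colour the treatment, and the black line the mean of the 6. The pair of number 3 has a median over the 10 genes of 0.65 with VEH and of 0.44 with CIII, and the other pairs have medians between 1.72 and 2.80.

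The pairs of libraries with the same number showed how evenly the markers moved. All 10 were higher in F4/80hi in the pairs VEH 1, VEH 2, VEH 3 and CIII 1, 8 in CIII 2 and 9 in CIII 3. The median log2 difference over the 10 was 2.26, 2.66 and 0.65 in VEH 1, 2 and 3, and 2.80, 1.72 and 0.44 in CIII 1, 2 and 3. Over all genes the medians lay between -0.07 and 0.04. The difference between the subpopulations was thus smallest in the number 3 pair of each treatment.

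Within VEH alone, every F4/80hi library was above every F4/80lo library for 1 marker, Adgre1 (4.68% of all genes), and within CIII for 3, Adgre1, Icam2 and Marco (6.06%). The smallest adjusted p among the markers was 0.726 within VEH and 0.386 within CIII in limma without the block. With the block, limma called 5 within VEH (Adgre1, Icam2, Selp, Vsig4 and Marco) and 3 within CIII (Adgre1, Cd9 and Marco), against 0.629% of genes in each. Without number 3 it called 5 within VEH, against 0.265% of genes, 4 of which were shared with the block. Within CIII it called 4 (Adgre1, Icam2, Selp and Marco), against 0.634%, and 2 of these were shared with the block. The contrasts within VEH and within CIII use different libraries, and a call in 1 of them does not show that the treatments differ.

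CIII was compared with VEH within each subpopulation on the deposited normalised counts, which asks whether blocking mPGES-1 during resolution altered the markers. Marco stood apart in F4/80lo Mϕ, where all 3 CIII libraries (22.2 to 50.3 jointly normalised counts) lay under all 3 VEH libraries (83.1 to 363). The log2 difference was -2.21 (SE 0.53, 95% interval -3.37 to -1.05), with an unadjusted p of 0.00147 and an adjusted p of 0.9996 in limma. With the block the adjusted p was 0.472 in limma, by DESeq2 it was 0.0975, and an exact permutation test of 3 against 3 cannot give a p below 0.1. Without number 3, with 2 libraries a group, limma gave -2.84 (SE 0.46, adjusted p = 0.00331), and Marco was then the only marker called, against 0.114% of genes. Over all libraries and without the block, 1 marker, Marco, had an unadjusted p under 0.05 in limma, against 2.7% of genes, and with the block 2 did, Marco and Fn1, against 6.89%. Marco was the only 1 of the 10 whose treatments did not overlap, against 8.73% of genes.

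In F4/80hi Mϕ, Marco had a log2 difference of -0.49 (SE 0.80, 95% interval -2.30 to 1.31, adjusted p = 0.992, limma) between CIII and VEH, and the treatments overlapped. By number, it was lower with CIII in numbers 1 and 2 (-0.42 and -2.23) and higher in number 3 (1.16), while in F4/80lo Mϕ it was lower in all 3 (-1.71, -3.98 and -0.95). The difference between the responses was 1.70 (SE 1.06), with an adjusted p of 1 and an unadjusted p of 0.133 in limma. With the block its SE was 0.44 and its unadjusted p 0.00117, with an adjusted p of 0.668 in limma, so the subpopulations were not shown to respond differently. The log2 gap of Marco between F4/80hi and F4/80lo was 1.95 (SE 0.75) with VEH and 3.65 (SE 0.75) with CIII, and it shares these libraries with the comparison of the treatments.

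**Figure D4:**
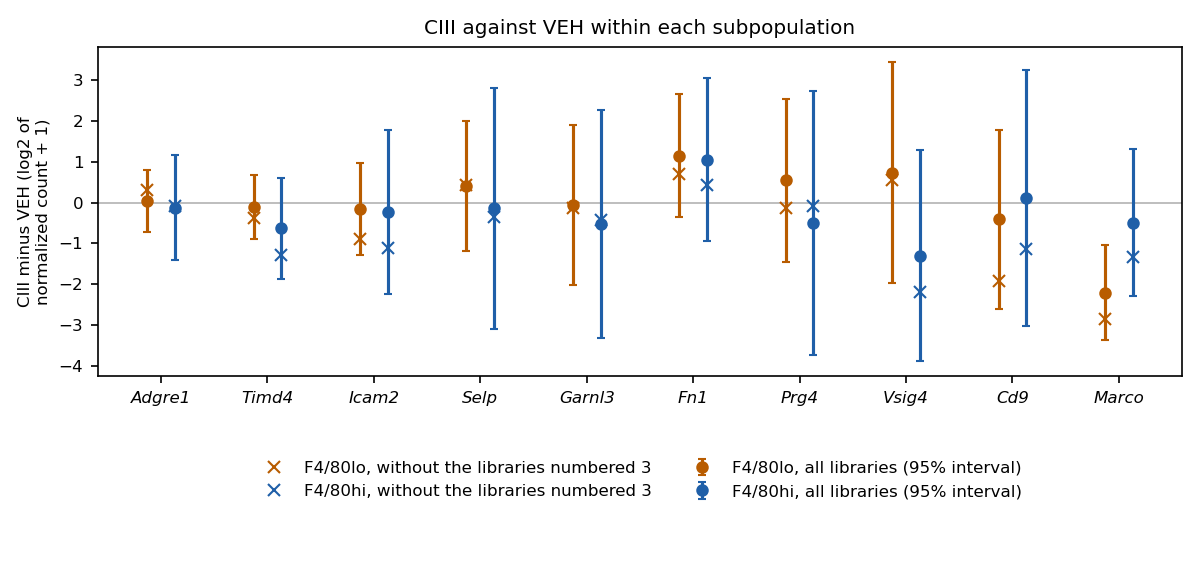
Log2 difference between CIII and VEH (normalised count plus 1) of each marker in F4/80lo (orange) and F4/80hi (blue) Mϕ. Circles with bars are the estimates of limma and their 95% intervals over all libraries (3 against 3), and crosses are the estimates without the libraries numbered 3 (2 against 2). The interval excludes 0 for Marco in F4/80lo only, at -3.37 to -1.05.

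Fn1 was the marker with the largest increase in its mean with CIII in either subpopulation, and it missed the threshold. The log2 difference was 1.15 (SE 0.69, 95% interval -0.36 to 2.66, adjusted p = 0.9996, limma) in F4/80lo and 1.05 (SE 0.88, 95% interval -0.94 to 3.04, adjusted p = 0.992, limma) in F4/80hi Mϕ. CIII lay above VEH for each of the 3 numbers in either subpopulation, most of all in number 3 (2.07 and 2.31), and the treatments overlapped. With the block the 95% intervals were 0.14 to 2.16 in F4/80lo, which left out 0, and -0.14 to 2.24 in F4/80hi. This block pairs the treatments by number, although the correlations given below set VEH 1 closer to CIII 2 than to CIII 1. The adjusted p with the block was 0.689 and 0.496 in limma, and without number 3 the differences were 0.69 and 0.42.

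In F4/80hi Mϕ none of the 10 had an unadjusted p under 0.05 with limma over all libraries (3.93% of genes did) or with the block (11.3%). By DESeq2 1 did, Vsig4, against 4.03% of genes. None had treatments that did not overlap (10.5%). Without number 3, 4 of them had an unadjusted p under 0.05 and lower values with CIII, against 4.03% of genes. These were Vsig4 (log2 difference -2.18, SE 0.48), Marco (-1.32, SE 0.47), Timd4 (-1.27, SE 0.45) and Icam2 (-1.12, SE 0.33), each with an adjusted p of 0.626 in limma. Over all libraries their differences were -1.30, -0.49, -0.63 and -0.23, and number 3 went the other way for all 4. The VEH library numbered 3 was the lowest of its group for each of them (2.16, 163, 89.8 and 24.9 jointly normalised counts).

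Of the 10 markers, Cd9 moved most without number 3 in the comparison of the treatments. In F4/80lo Mϕ CIII minus VEH was -2.31 and -1.55 on the log2 scale in numbers 1 and 2 and 2.61 in number 3, and in F4/80hi Mϕ it was -1.13, -1.13 and 2.60. Over all libraries the differences were -0.41 (SE 1.00) and 0.11 (SE 1.39), with adjusted p-values of 0.9996 and 0.999 in limma. Without number 3 they were -1.93 (SE 0.50, limma, adjusted p = 0.187) and -1.13 (SE 0.56, limma, adjusted p = 0.669).

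For the remaining markers the 95% interval of the difference between CIII and VEH included 0. Adgre1 had log2 differences of 0.04 (-0.72 to 0.80) in F4/80lo Mϕ and -0.12 (-1.41 to 1.17) in F4/80hi. Timd4, Icam2 and Vsig4 had -0.11 (-0.90 to 0.68), -0.16 (-1.28 to 0.97) and 0.73 (-1.98 to 3.44) in F4/80lo Mϕ. For Selp the values, with F4/80lo given before F4/80hi, were 0.41 (-1.18 to 2.01) and -0.14 (-3.10 to 2.82), and for Garnl3 they were -0.06 (-2.01 to 1.90) and -0.52 (-3.31 to 2.26). In the same order, Prg4 had 0.54 (-1.46 to 2.54) and -0.50 (-3.74 to 2.74). Adgre1 and Timd4 in F4/80lo had the narrowest of these intervals, and those of Selp, Garnl3 and Prg4 included changes of 1 log2 unit in either direction. With the replicate block the intervals in F4/80hi were -0.79 to 0.51 for Selp, -1.41 to 0.36 for Garnl3 and -1.16 to 0.16 for Prg4. A change of 1 log2 unit lay outside them in both directions for Selp, and upwards only for Garnl3 and Prg4. In F4/80lo the block gave -0.59 to 1.42 for Selp, -1.78 to 1.67 for Garnl3 and -0.87 to 1.95 for Prg4.

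Other genes of resident and of monocyte-derived cells were counted from lists of 15 and 12 genes, all of them tested. Of the further resident genes, 14 had a positive log2 difference between F4/80hi and F4/80lo, with a median of 1.62. Limma called 1 of them higher without the block, 11 with it and 9 without number 3, against 0.00938%, 2.53% and 1.75% of all genes. Saa3, an acute-phase gene, was called (2.44, SE 0.32, limma, adjusted p = 0.0265), and limma without the block called 0 genes when any of 9 single libraries was left out. Aspa, the gene of aspartoacylase, had 2.61 (SE 0.73, limma, adjusted p = 0.262), and Naip1, an inflammasome receptor gene, had 1.62 (SE 0.48, limma, adjusted p = 0.292), and either was called with the block. Rarb, the gene of a retinoic acid receptor, was the only 1 of the 15 with a negative difference (-0.12, SE 0.49). A list of 6 genes of Mϕ in general had 4 positive and 2 negative differences, with a median of 0.47. Limma called 0 of these 6 higher without the block, 3 with it and 1 without number 3.

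Of the 12 genes of monocytes and small peritoneal Mϕ, 10 had a negative difference, with a median of -1.06, and none was called by limma without the block, where 5 of the genes with a negative difference had an unadjusted p under 0.05. With the block 4 were called lower, against 2.45% of all genes, and without number 3 the count called lower was 6, against 1.53%. Of the 2 with a positive difference, 1 was called higher with the block and without number 3, against 2.53% and 1.75%. Cx3cr1, the fractalkine receptor gene, had -2.73 (SE 0.45, limma, adjusted p = 0.0614), Napsa, a protease gene, had -2.85 (SE 0.59, limma, adjusted p = 0.104) and Il1b, the gene of interleukin 1 beta, -3.19 (SE 0.87, limma, adjusted p = 0.239). Lyz1, a lysozyme gene, had a positive difference of 0.11 (SE 0.75, limma, adjusted p = 0.979).

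The further resident genes were low in number 3 together with the markers. Of the 15, number 3 was lowest of the 3 libraries for 15 in F4/80hi VEH, 12 in F4/80hi CIII, 12 in F4/80lo VEH and 8 in F4/80lo CIII, beside the 32.5% to 38.6% of all genes given above. The monocyte genes were split. In number 3, 7 of the 12 were highest and 4 lowest in F4/80hi VEH, 7 and 3 in F4/80hi CIII, 5 and 5 in F4/80lo VEH, and 4 and 5 in F4/80lo CIII. Of all genes tested, number 3 was highest for 38.0%, 37.5%, 38.8% and 36.3% in the same order of groups. Lymphocyte genes were also high in F4/80hi VEH number 3, where 8 of the 9 T and NK cell genes and 6 of the 9 B cell genes were highest of the 3 libraries. In F4/80hi CIII number 3, by contrast, 2 and 0 were highest and 6 of the B cell genes were lowest. The summed level of the monocyte list ranged from 2325 to 5692 in F4/80lo VEH, 2403 to 3315 in F4/80lo CIII, 992 to 2411 in F4/80hi VEH and 741 to 1434 in F4/80hi CIII. The part of any of these lists in the low markers of number 3 was not tested.

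Markers of other cells, among them those that the gating scheme set aside, were counted in the same way. Dendritic cell genes summed to 5.33 to 228 in F4/80lo VEH, 28.5 to 151 in F4/80lo CIII, 1.40 to 20.5 in F4/80hi VEH and 1.25 to 8.26 in F4/80hi CIII. The 9 B cell genes summed to between 23.5 and 190 in F4/80lo libraries, with 0 to 72.1 as the range of F4/80hi and with 5.58, 0 and 46.5 in numbers 1 to 3 of F4/80hi VEH. The 9 T and NK cell genes summed to 6.98, 1.37 and 94.2 in the same libraries, so that number 3 stood above every other library of the 12. Their sums were 9.02, 8.76 and 3.93 in F4/80hi CIII, and F4/80lo libraries ranged from 11.2 to 60.0. The 12 neutrophil genes summed to between 20.4 and 143, with Ly6g at or near 0, and the 8 eosinophil and mast cell genes to at most 14.9. The part of these cells in the levels of the markers was not tested.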

How the data were processed

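Per the labels, mRNA of the sorted Mϕ was sequenced from its 3′ end with molecular identifiers. The authors mapped reads to GRCm38 with STAR, collapsed duplicates and counted with HTSeq. The deposited values are a signal of normalised counts, which the authors obtained by dividing whole reads by 1 DESeq2 size factor per library, set separately for each subpopulation. Every value (100%) was a whole multiple of the value of 1 read within 0.01 reads, so whole reads were recovered. Symbols were found for 47224 of 47643 identifiers in GENCODE.

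Levels were compared between subpopulations only after the reads of the 12 libraries were scaled together by median-of-ratios size factors over the 8515 genes with reads in all of them. Limma 3.58.1 (R 4.3.3; trend, two-sided, Benjamini-Hochberg over all genes, threshold 0.05) was fitted to log2 of the value plus a pseudocount of 1, in genes with a mean of at least 3. The fit across subpopulations had 4 group means and 10660 genes, and CIII was compared with VEH on deposited values in 10718 (F4/80lo) and 10499 (F4/80hi) genes. Such differences understate those of weakly expressed genes. SD, SE and n refer to libraries. A replicate block was fitted as an alternative. The pairing by number rests on the deviations alone. Between subpopulations, libraries with the same number correlated across genes at 0.266 to 0.692, and others at most at 0.223. Between treatments the ranges overlapped, at 0.121 to 0.635 for the same number and up to 0.287 for others. There F4/80lo VEH 1 correlated at 0.162 with CIII 2 and 0.121 with CIII 1, and F4/80hi VEH 1 at 0.287 and 0.21. VEH 1 thus lay closer to CIII 2 than to CIII 1 in either subpopulation. edgeR 4.0.16 and DESeq2 1.42.0 were run on recovered reads, and scripts were tested on simulated data.

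All 10 markers were named, and from the resident and monocyte lists the 3 genes with the smallest p in each direction (fewer where fewer existed, and 1 named by this rule is not reported here). The markers and lists were chosen with earlier results of these data known. Antisense and overlapping genes were not separated further. The other assays of the study were not used here.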

Additional observations from a re-analysis of the deposited data

How the results depend on the processing

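Between F4/80hi and F4/80lo, limma called 2 genes over all libraries. It called 10 with a pseudocount of 5, 0 when every gene with a read entered (with 1308 at an unadjusted p under 0.05), 5 with scaling to the library total, 5 with that total less Gm42418 (chosen after seeing the data), 531 with the replicate block and 347 without the libraries numbered 3, and DESeq2 called 140. Within VEH, limma called 0 genes over all libraries, 127 with the block and 82 without number 3, and DESeq2 called 20. Within CIII, limma called 0, 100 with the block and 96 without number 3, and DESeq2 called 20. For CIII against VEH in F4/80lo, limma called 0 genes, 12 without number 3, and DESeq2 called 2. Leaving out 1 library at a time gave 0 to 141 calls between the subpopulations, 0 to 22 within VEH and 0 to 1 within CIII, and 0 for CIII against VEH in either subpopulation. The calls were 141 without F4/80hi VEH 3, 38 without F4/80lo VEH 3, 9 without F4/80hi CIII 3 and 0 without any other single library. TMM scaling and a minimum mean of 10 moved none of these counts by over 1.5 times. The block changed no call of CIII against VEH or of the difference between the responses.

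The 10 markers kept a positive difference between F4/80hi and F4/80lo under every alternative over both treatments, and with 1 library left out the lowest value was 0.20 for Fn1. Within VEH, Fn1 ran from -0.10 to 1.58 with 1 library left out. For CIII against VEH, Prg4 in F4/80lo turned to -0.14 without number 3, and Cd9 in F4/80hi turned to -0.97 with edgeR, -0.98 with DESeq2 and -1.13 without number 3. The cause was not tested. With 1 library left out, differences that changed sign in F4/80lo ranged as follows, in log2 units: Adgre1 -0.18 to 0.24, Timd4 -0.31 to 0.0824, Icam2 -0.70 to 0.17, Selp -0.24 to 1.08, Garnl3 -0.62 to 0.35, Prg4 -0.46 to 1.24, Cd9 -1.87 to 0.57. In F4/80hi they were Adgre1 -0.61 to 0.41, Icam2 -1.45 to 0.50, Selp -1.60 to 1.11, Garnl3 -1.73 to 0.77, Prg4 -1.79 to 1.20, Cd9 -1.75 to 1.43, Marco -1.50 to 0.41. With 3 libraries a group and 1 read worth up to 2.28 deposited counts, Vsig4 and Garnl3 are limited most by depth.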
